A study of Mus musculus with 6 samples.

Results

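Cathepsins are the proteases of the lysosome, and cystatin C is a secreted protein that blocks most of those with a cysteine in the active site. The 9 cathepsin genes Ctsa, Ctsb, Ctsc, Ctsd, Ctsh, Ctsk, Ctsl, Ctss and Ctsz and the cystatin C gene Cst3 were picked by symbol from the 22966 genes of a count table of 6 RNA sequencing libraries, 10 genes in all. They were chosen from a survey in which the contrast of Cre against flox libraries was already known, so their difference between the groups is given as a description: no p-value is given for a member, and counts of members past a threshold support nothing. The libraries came from primary hepatic stellate cells, the retinoid-storing pericytes of the liver that become collagen-producing myofibroblasts after injury. The titles name 3 libraries flox and 3 Cre, and both groups carry the same genotype entry, BucheHep, and the same treatment entry, CCl4, a hepatotoxin used to induce liver fibrosis. The growth protocol speaks of BucheΔHep mice, and the series text of a hepatocyte knockout of the butyrylcholinesterase gene, so the group rests on the title alone. The sources used here do not give the strain, age, sex, dose or time of these mice, nor what drives the Cre. Nothing in the labels ties the 3 libraries of each group to 3 different animals, so the errors below measure the spread between these libraries, which may be technical.

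Cathepsins are made as inactive proenzymes, tagged with mannose 6-phosphate in the Golgi and carried to the lysosome, where acid activates them. Macrophages, including the Kupffer cells that line the liver sinusoids, are rich in them, and cathepsins B and D have also been studied in stellate cell activation. In bulk libraries, fewer cells of a type and less RNA per cell cannot be told apart.

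The libraries held 37273142 to 41006722 counts. Of 20 stellate and myofibroblast markers, all were in the table and none was at 0 in every library, with a summed level of 1379 to 3285 CPM (counts scaled to library size, with the TMM factor that aligns most genes between libraries) in flox and 2469.5 to 3936 CPM in Cre. In counts of genes, here and below, fell and rose mean past an adjusted p of 0.05 in edgeR. Of all genes tested, 8.94% fell and 6.35% rose. Of the 19 stellate markers tested, 0 fell and 4 rose. Of these 19, 6 had a negative log2 fold change, and the median log2 fold change, Cre over flox, was 0.54. The retinoid-esterifying enzyme gene Lrat, which defines quiescent stellate cells, was low, with 95, 84 and 5 counts in flox 1, 2 and 3 and with 41, 7 and 31 counts in Cre 1, 2 and 3, and Gfap had 0 to 4 counts. The 20 macrophage and Kupffer cell markers summed to 8953 to 24247 CPM in flox and 2669.9 to 3309 CPM in Cre. None of them was at 0, 17 of the 20 fell and 0 rose, and their median log2 fold change was -2.97. Markers of sinusoidal and vascular endothelium were present in both groups, at 1822 to 4803 CPM in flox and 2555 to 4337 CPM in Cre, and 1 of 12 fell. Dendritic cell markers summed to 275 to 436 CPM in flox and 127 to 191 CPM in Cre, and 3 of the 7 tested fell. Neutrophil markers summed to 93.4 to 159.6 CPM in flox and 21.9 to 59.9 CPM in Cre, with 1 of the 3 tested lower and Ly6g and Ngp, of 10, at 0 counts in each library, where 3 counts would be 0.0732 to 0.0805 CPM. Mesothelial markers had a median of 1.40 and hepatocyte markers one of -0.84, with 0 of 11 called in each. Flox 3 stood apart from flox 1 and flox 2: on the first principal component of all tested genes it lay at -6.61, against -64.3 and -89.3 for the other flox libraries and 39.8 to 63.8 for the Cre libraries. The members' values without it are given below.

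The promoters of the members are shown first, and whether their letters bear on the levels was not tested. RefSeq promoters of GRCm38.p6, from 250 bases before to 50 bases after a gene's start, were matched by symbol for 8 members, with 9 starts because Ctsa has a pair. The motifs searched are short, and each was searched on both strands. CACGTG is the core letters bound by MiT-TFE factors, the transcription factors that drive lysosomal genes, and TCACGTG contains it. GAGGAAG holds the core letters of ETS factors such as PU.1 of myeloid cells, and TGANTCA is the AP-1 motif. CACGTG lay in the promoters of 3 members, Ctsa (1 of its starts), Ctsd and Ctsl, and in 7.15% of all 32817 promoters of this length. The longer TCACGTG lay in those of Ctsa and Ctsd and in 3.76% of all promoters. GAGGAAG lay in the promoters of 3 other members, Ctsc, Ctsk and Ctss, and in 13.6% of all. TGANTCA was in 0 of the 9 member promoters and in 7.81% of all. No member promoter held both CACGTG and GAGGAAG, and those of Cst3 and Ctsz held none of the motifs. A match is a description of letters and not a site. The 4 promoters below show both kinds, with all matches in capitals. In Ctsa (chr2:164833523-164833822, plus strand), CACGTG begins 12 bases before and 5 bases after the start. In Ctsd (chr7:142387778-142388077, minus strand) it begins 245 and 98 bases before the start. In Ctsc (chr7:88277835-88278134, plus strand) the reverse complement of GAGGAAG begins 197 and 150 bases before the start, and in Ctss (chr3:95526536-95526835, plus strand) it begins 1 base before it.
Ctsa: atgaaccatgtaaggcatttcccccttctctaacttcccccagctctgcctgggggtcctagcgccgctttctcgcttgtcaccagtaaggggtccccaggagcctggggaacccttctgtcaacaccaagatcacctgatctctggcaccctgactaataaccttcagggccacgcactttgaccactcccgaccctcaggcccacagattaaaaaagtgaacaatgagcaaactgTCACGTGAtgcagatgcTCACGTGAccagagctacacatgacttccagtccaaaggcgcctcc
Ctsd: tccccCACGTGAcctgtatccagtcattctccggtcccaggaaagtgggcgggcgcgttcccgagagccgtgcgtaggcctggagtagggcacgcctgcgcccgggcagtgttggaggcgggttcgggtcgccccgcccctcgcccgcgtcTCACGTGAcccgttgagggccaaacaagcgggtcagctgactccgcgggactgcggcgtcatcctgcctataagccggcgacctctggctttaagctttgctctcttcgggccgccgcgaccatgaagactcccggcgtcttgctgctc
Ctsc: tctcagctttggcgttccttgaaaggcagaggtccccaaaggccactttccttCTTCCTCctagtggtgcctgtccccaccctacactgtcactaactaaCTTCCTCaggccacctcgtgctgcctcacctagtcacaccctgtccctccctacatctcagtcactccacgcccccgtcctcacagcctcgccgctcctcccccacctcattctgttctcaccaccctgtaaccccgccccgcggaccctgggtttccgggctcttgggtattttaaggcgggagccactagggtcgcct
Ctss: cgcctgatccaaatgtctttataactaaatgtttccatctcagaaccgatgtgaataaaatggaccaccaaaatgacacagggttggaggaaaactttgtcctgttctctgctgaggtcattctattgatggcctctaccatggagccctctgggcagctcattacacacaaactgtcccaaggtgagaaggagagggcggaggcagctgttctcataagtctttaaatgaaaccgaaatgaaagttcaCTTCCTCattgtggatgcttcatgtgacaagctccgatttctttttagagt

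Together the 10 genes took a large part of all reads and a smaller one in the Cre libraries. They held 3.34%, 3.62% and 2.36% of all counts in flox 1, 2 and 3 and held 1.36%, 1.58% and 1.63% in Cre 1, 2 and 3, a mean of 3.11% ± 0.662 against 1.52% ± 0.145 (SD, n = 3). Every Cre library lay below every flox library, with flox 3 the lowest of its group. The 95% Wilson interval, 2.35% to 2.36% in flox 3, covers counting error only. All 10 genes passed the filter on low counts and all 10 had a negative log2 fold change, with a median of -1.21 against 0.01 over the 14795 genes tested. In TMM-scaled CPM, every Cre library was below every flox library for 8 of the 10, all but Ctsk and Cst3. This held for 20.0% of all genes. For Ctsz it depended on the scaling: when counts were scaled to gene length and library total, flox 3 (575) was below Cre 3 (590). In the edgeR fit over all genes, 6 of the 10 were past an adjusted p of 0.05 on the lower side, where 8.94% of all genes were, and 0 on the higher side, where 6.35% were. Scaled by library totals in place of TMM, which moves the log2 fold changes up by about 0.16, the split over all genes turned from 1323 lower and 940 higher to 1066 lower and 1415 higher, and all 10 members stayed negative. Without flox 1, flox 2, Cre 1 or Cre 2, 0 of the 10 members were past the threshold, as were 0 of all genes, with 7 or 8 of the members at an unadjusted p below 0.05. Without flox 3, 9 were past it, and without Cre 3, 2. The median stayed between -1.39 without flox 3 and -1.04 without flox 2.

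**Figure D1:**
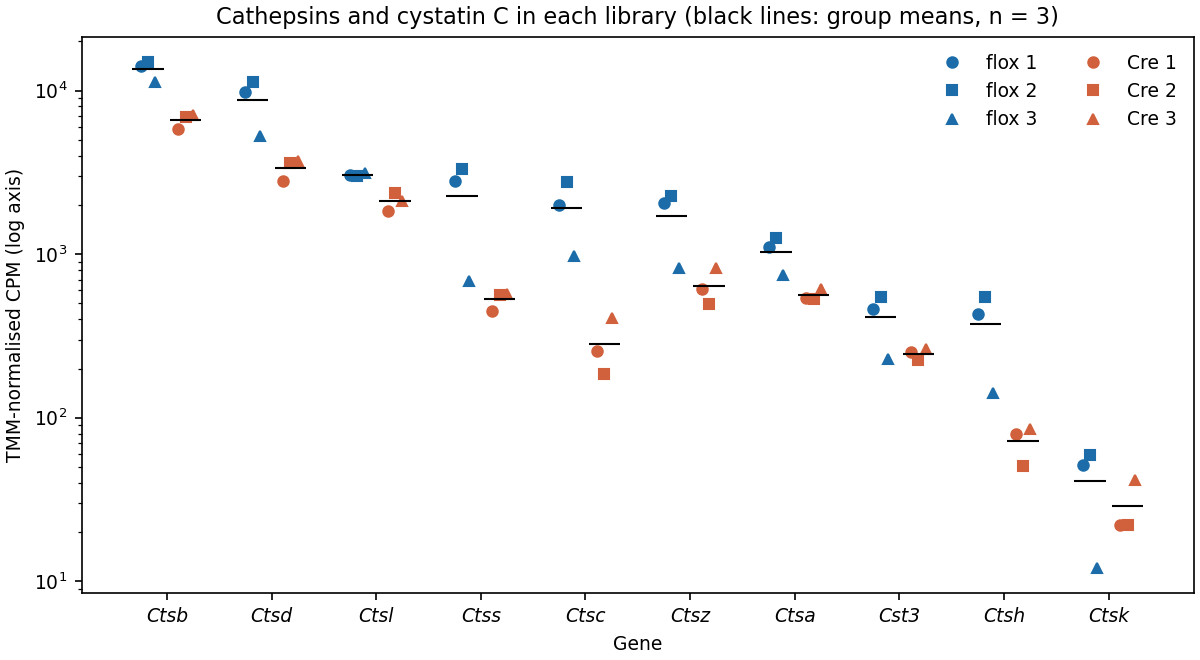
TMM-normalised CPM on a log axis for each of the 10 genes, 1 symbol per library, with flox in blue, Cre in orange and black lines for group means (n = 3). The Cre symbols lie below the flox symbols for all genes but Ctsk and Cst3, and flox 3 (blue triangle) is the lowest flox library for 9 of the 10 genes.

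Ctsb, which encodes an endopeptidase that also trims dipeptides from the carboxyl end, had the highest count of all genes in each of the 6 libraries (chromosome 14, 63122462 to 63145923 in GRCm38, as are the positions below). It stood at 14228, 14960.5 and 11361 CPM in flox 1, 2 and 3 and at 5815, 6865 and 7113 CPM in Cre 1, 2 and 3. The groups did not overlap, and flox 3 lay closer to the other flox libraries than to Cre. The log2 fold change was -1.03 ± 0.19 (standard error, n = 3 per group, as below), or 2.05-fold lower in Cre, and -1.14 without flox 3. Ctsl, an endopeptidase of broad range (chromosome 13, 64359337 to 64370890), was the steadiest member among the flox libraries, at 3034, 2986 and 3148 CPM in flox 1, 2 and 3, and at 1847, 2369 and 2122 CPM in Cre 1, 2 and 3. It was the member for which flox 3 was not the lowest flox library, and its log2 fold change was -0.53 ± 0.14, and -0.51 without it. The exons of Ctsb overlap Fdft1, which had 0.267% of its counts, and those of Ctsl overlap predicted genes. Of 9 related cathepsin genes known from the placenta, Ctsj was in the table, with 54 to 56 counts in each flox library and with 8, 17 and 12 counts in Cre 1, 2 and 3. Reads from these and from Ctsl cannot be told apart with certainty, since how reads were counted is unknown here.

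By fold between the fitted group levels, the largest differences were those of Ctsc, Ctsh and Ctss, a dipeptidyl peptidase, an aminopeptidase and an endopeptidase. Ctsc, which activates the granule serine proteases of leukocytes (chromosome 7, 88278085 to 88310888), stood at 2003, 2748 and 979 CPM in flox 1, 2 and 3 and at 255, 184 and 409 CPM in Cre 1, 2 and 3. The lowest flox library was above the highest Cre library, and the log2 fold change was -2.76 ± 0.46, or 6.76-fold lower, and -3.07 without flox 3. Ctsh, a cathepsin with aminopeptidase activity (chromosome 9, 90054152 to 90076089), stood at 429, 546 and 142 CPM in flox 1, 2 and 3 and at 79.4, 51.0 and 85.9 CPM in Cre 1, 2 and 3. Flox 3 was nearer to the Cre libraries here, and the log2 fold change was -2.37 ± 0.49, or 5.16-fold lower, and -2.75 without flox 3. Ctss, which trims the invariant chain of class II molecules in antigen-presenting cells (chromosome 3, 95526786 to 95556403), stood at 2788, 3333 and 688 CPM in flox 1, 2 and 3 and at 449, 567 and 571 CPM in Cre 1, 2 and 3. Flox 3 was 4.43-fold below the mean of the other flox libraries and 1.31-fold above the Cre mean. The log2 fold change was -2.10 ± 0.54, and -2.53 without flox 3. The macrophage markers moved the same way, with sums of 8953 to 24247 CPM in flox and 2669.9 to 3309 CPM in Cre, and their part in these differences was not tested.

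Ctsz, a carboxypeptidase (chromosome 2, 174427493 to 174439039), stood at 2055 and 2259 CPM in flox 1 and 2 but at 821 CPM in flox 3, against 612, 496 and 818 CPM in Cre 1, 2 and 3. Flox 3 and Cre 3 were thus nearly level, and the log2 fold change was -1.41 ± 0.40, and -1.74 without flox 3. Its exons overlap Nelfcd, whose counts came to 1.14%, 0.898% and 3.29% of its own in flox 1, 2 and 3 and to 4.63%, 6.87% and 3.07% in Cre 1, 2 and 3. Ctsd, the aspartic protease of the group (chromosome 7, 142375911 to 142388038), stood at 9825, 11249.5 and 5249 CPM in flox 1, 2 and 3 and at 2812, 3624 and 3689 CPM in Cre 1, 2 and 3. The groups did not overlap, and the log2 fold change was -1.38 ± 0.31, or 2.60-fold lower, and -1.64 without flox 3. Ctsa, a serine carboxypeptidase that shields neuraminidase and beta-galactosidase in the lysosome (chromosome 2, 164832873 to 164841032), stood at 1104, 1252 and 746 CPM in flox 1, 2 and 3 and at 537, 532 and 609 CPM in Cre 1, 2 and 3, and its log2 fold change was -0.89 ± 0.20, and -1.07 without flox 3. The exons of Ctsa overlap those of Pltp, whose counts came to 34.3%, 45.2% and 24.1% of its own in flox 1, 2 and 3 and to 12.4%, 8.84% and 10.6% in Cre 1, 2 and 3, a larger share in each flox library than in any Cre library. The log2 fold change of Pltp was -2.66, and its part in that of Ctsa was not tested. Without strand in the counting, reads of Ctsa and Pltp that fall in the shared part cannot be told apart.

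Ctsk, the collagen-cleaving cathepsin of osteoclasts and fibroblasts (chromosome 3, 95499256 to 95509362), was the least abundant member and one of the 2 whose groups overlapped in CPM. It stood at 51.4, 59.3 and 12.1 CPM in flox 1, 2 and 3 and at 22.0, 22.2 and 41.8 CPM in Cre 1, 2 and 3. Flox 3 was the lowest of all 6 libraries and Cre 3 was above the other Cre libraries. The log2 fold change was -0.51 ± 0.57, from -0.12 without flox 2 to -0.95 without flox 3. The summed stellate markers were at 2469.5, 3248 and 3936 CPM in Cre 1, 2 and 3, and at 3285, 1869 and 1379 CPM in flox 1, 2 and 3. Their part in the Ctsk levels was not tested. Ctsk and Ctss are neighbours, 17423 bases apart, and both read on the plus strand. Set against Ctsk per kilobase, Ctss was 59.2, 61.4 and 61.9 times as high in flox 1, 2 and 3, on the scale of FPKM (counts scaled to gene length and library total), although both genes were more than 4-fold lower in flox 3 than in the other flox libraries. In Cre 1, 2 and 3 it was 22.3, 27.9 and 14.9 times as high, so the ratio of this pair, picked after its values were seen, did not overlap between the groups.

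**Figure D2:**
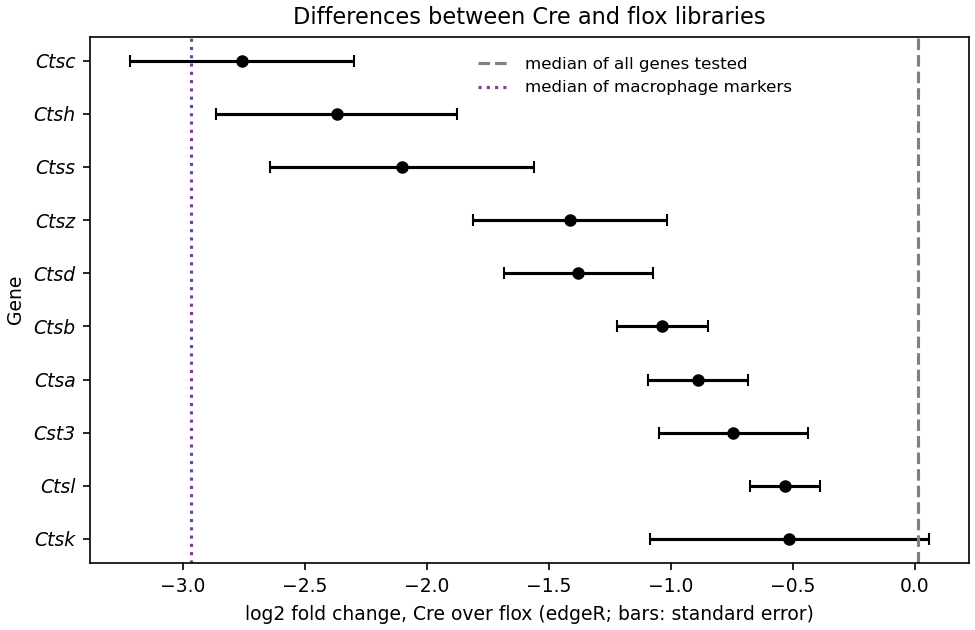
Log2 fold change of each member, Cre over flox, with its standard error as a bar (edgeR, n = 3 per group), the median of all genes tested as a dashed line and the median of the macrophage markers as a dotted line. The values run from -2.76 for Ctsc to -0.51 for Ctsk, between the macrophage median of -2.97 and the all-gene median of 0.01.

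Cst3, the inhibitor (chromosome 2, 148871722 to 148875692), stood at 465, 546 and 229 CPM in flox 1, 2 and 3 and at 253, 226 and 262 CPM in Cre 1, 2 and 3. Flox 3 lay among the Cre libraries, so the groups overlapped. The log2 fold change was -0.74 ± 0.30, and ran from -0.47 without flox 2 to -1.03 without flox 3. Cst3 FPKM divided by the summed FPKM of the 7 cysteine cathepsins was 0.0743, 0.0786 and 0.0627 in flox 1, 2 and 3, against 0.123, 0.0971 and 0.103 in Cre 1, 2 and 3. Here flox 3 was not near the Cre libraries but had the lowest ratio of all, and each Cre library lay above each flox library. Both parts of the ratio had lower means in Cre. Mean Cst3 FPKM was 485 in flox and 328 in Cre, and the mean sum was 6613 in flox and 3067 in Cre. How often such a ratio separates the groups for other genes was not computed. The ratio is one of transcripts, and protein was not measured in the files used here.

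Per kilobase, Ctsd and Ctsb led in both groups and the order below them differed. In flox the mean FPKM ran from Ctsd (4278 ± 1342, SD, n = 3) through Ctsb (2686 ± 236), Ctss (1449 ± 853), Ctsz (1107 ± 463), Ctsl (811 ± 68.8), Cst3 (485 ± 173), Ctsc (329.7 ± 139.7), Ctsa (264 ± 53.4) and Ctsh (207 ± 109) to Ctsk (23.9 ± 14.2). Between neighbours in this order, the ranges over libraries were separate for Ctsb over Ctss, Ctsl over Cst3 and Ctsh over Ctsk, and overlapped for the others. In Cre it ran from Ctsd (1858 ± 246) through Ctsb (1468 ± 133), Ctsl (624 ± 73.9), Ctsz (470.3 ± 114), Ctss (385 ± 46.0), Cst3 (328 ± 23.7), Ctsa (161 ± 10.1), Ctsc (55.2 ± 21.6) and Ctsh (45.6 ± 11.5) to Ctsk (19.1 ± 7.26). There the ranges overlapped for Ctsl and Ctsz, Ctsz and Ctss, Ctss and Cst3, and Ctsc and Ctsh, and were separate for the other neighbours. By group mean Ctss ranked 3 in flox and 5 in Cre, and Ctsl 5 in flox and 3 in Cre. In flox 3 alone the 10 genes stood in the order of the Cre means, so this difference in order rests on flox 1 and flox 2. Among all genes in the table, Ctsd ranked 3 to 10 and Ctsb 6 to 16 by FPKM across the 6 libraries, while Ctsk ranked 1986 to 6442.

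The 9 cathepsins added up to 12342, 13524 and 7601 FPKM in flox 1, 2 and 3 and to 4503, 5249 and 5504 FPKM in Cre 1, 2 and 3. Within this sum the share of Ctsd stayed between 34.9% and 39.3% in all libraries. Ctsl made up 6.39%, 5.59% and 11.7% in flox 1, 2 and 3, against 12.3%, 13.4% and 11.2% in Cre 1, 2 and 3. Ctss showed the reverse, with 14.5%, 15.4% and 6.30% in flox 1, 2 and 3, against 7.37%, 7.88% and 7.43% in Cre 1, 2 and 3. For Ctsl and Ctss flox 3 therefore sat with the Cre libraries in makeup while its sum lay between the groups. Ctsc kept the groups apart, at 2.41% to 3.41% in flox and 0.690% to 1.43% in Cre. Ctsa and Ctsk also did, in the other direction, with 2.26% to 2.69% against 2.92% to 3.48% for Ctsa and 0.102% to 0.251% against 0.282% to 0.499% for Ctsk. The shares of the remaining cathepsins overlapped between the groups. Shares are parts of 1 sum, so a share can rise while its gene falls. Both Ctsa and Ctsk had negative log2 fold changes, and the FPKM of Ctsk itself overlapped between the groups. How often such shares separate over other genes was not computed.

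**Figure D3:**
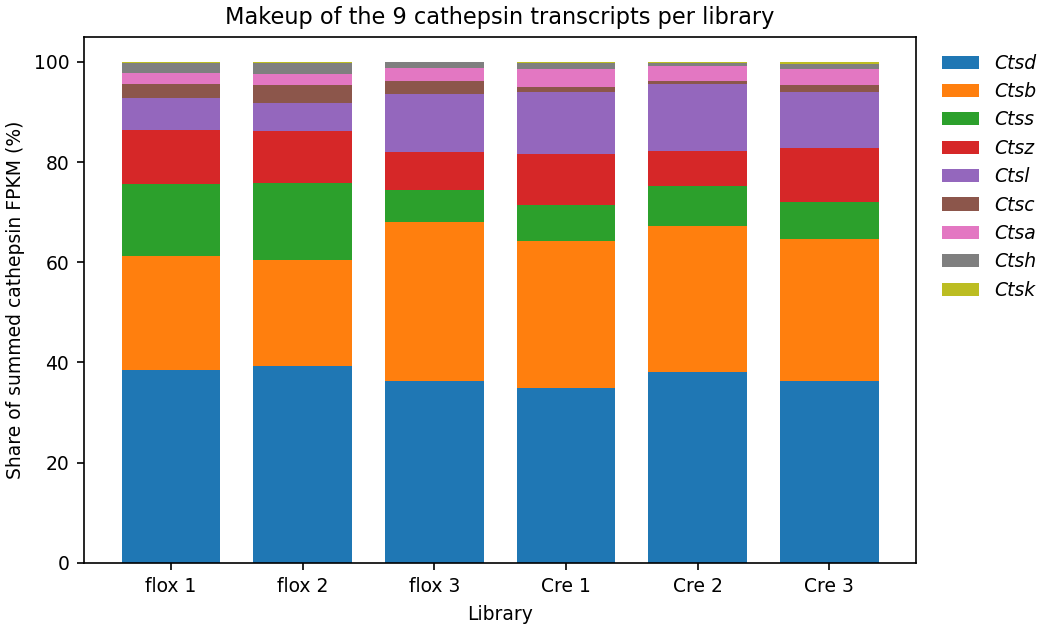
Stacked bars of the share (%) of each of the 9 cathepsins in their summed FPKM, 1 bar per library. The Ctsd share is similar in all 6 bars (34.9% to 39.3%), while flox 1 and flox 2 have more Ctss and less Ctsl than flox 3 and the Cre libraries.

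The members differed in how far flox 3 departed from the other flox libraries. On the log2 CPM scale, flox 3 minus the mean of flox 1 and 2 was -2.19 for Ctsk, -2.15 for Ctss, -1.77 for Ctsh, -1.39 for Ctsz, -1.26 for Ctsc, -1.14 for Cst3, -1.0 for Ctsd, -0.66 for Ctsa, -0.36 for Ctsb and 0.06 for Ctsl. The median was -1.20 over the members, -1.34 over the 20 macrophage markers, -0.70 over the 1323 genes called lower in Cre and -0.03 over all genes tested. The macrophage markers spread wider, from -2.58 for the scavenger receptor Cd163 to 0.83 for the red pulp macrophage factor Spic. Markers typical of Kupffer cells spread as well. Marco was at -0.37, Clec4f and Timd4 at -0.85, Cd5l at -1.07, Folr2 at -1.25 and Vsig4 at -2.33. The lysozyme gene Lyz2 was at -2.23. In TMM-scaled CPM, flox 3 was above every Cre library for 8 members, all but Ctsk and Cst3, though for Ctsz it was nearly level with Cre 3. Flox 3 also differed in other marker sums. Endothelial markers summed to 2238, 1822 and 4803 CPM in flox 1, 2 and 3, and hepatocyte markers to 385, 662 and 957 CPM. Stellate markers summed to 3285, 1869 and 1379 CPM in flox 1, 2 and 3. With 1 library of this kind, no test of its departure was possible.

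**Figure D4:**
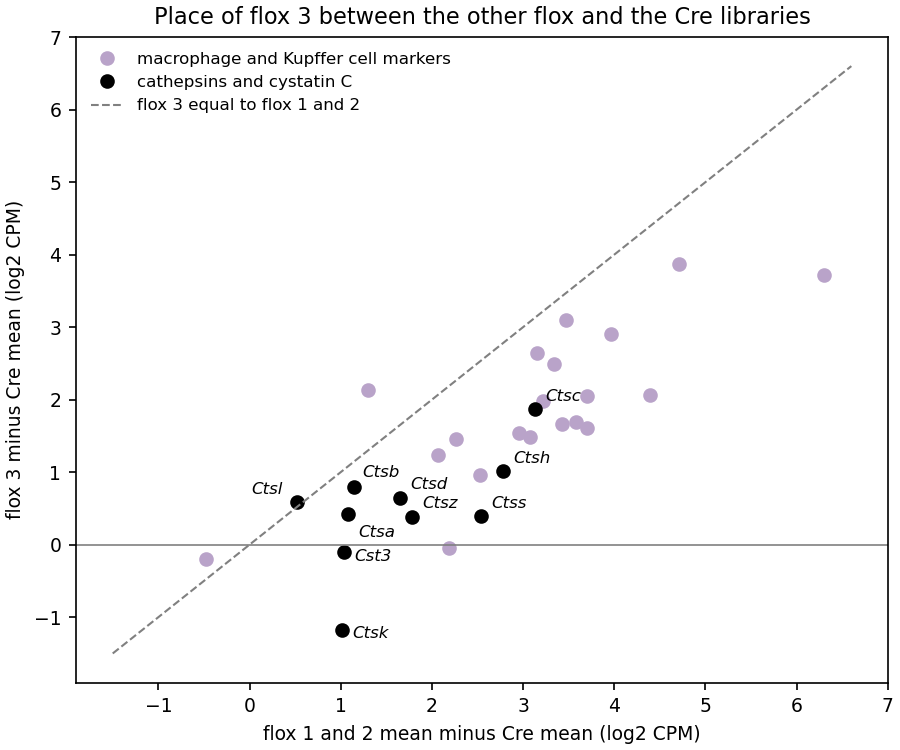
For each member (black) and each of the 20 macrophage and Kupffer cell markers (purple), the mean of flox 1 and 2 minus the Cre mean on the horizontal axis and flox 3 minus the Cre mean on the vertical axis, both in log2 CPM. Ctsl lies close to the dashed line where flox 3 equals the other flox libraries, Ctsb close below it, Ctss well below it, and Ctsk and Cst3 below 0, where flox 3 is under the Cre mean.

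Ctsc and Ctsk, the members with the lowest and the highest log2 fold change, differed in the genes whose levels ran most like theirs. Among 6328 genes of at least 5 in average log2 CPM, the 5 with the highest Pearson correlation with Ctsc over the 6 libraries were the cytokine receptor chain Csf2rb, the corepressor Sin3b, the lysosomal membrane protein Cln3, pleckstrin (Plek) and the inhibitory receptor Sirpa, with r of 0.999, 0.999, 0.999, 0.998 and 0.998. Sirpa stood at 1453, 1831 and 825 CPM in flox 1, 2 and 3 and at 347, 286 and 444 CPM in Cre 1, 2 and 3, in the same library order as Ctsc. The correlation takes no account of the size of a change. The log2 fold changes of these 5 genes ran from -1.93 for Sirpa to -0.40 for Sin3b, against -2.76 for Ctsc. Those most like Ctsk were Sdf2 (r = 0.997), the respiratory chain subunit Cox6c (0.990), Clptm1l (0.990), Glg1 (0.989) and the integrin-linked kinase Ilk (0.977). Their log2 fold changes were between -0.13 and -0.05, against -0.51 for Ctsk. The libraries share group and preparation, so these values describe likeness over 6 points and carry no p. Csf2rb has a close copy, and exons of Cln3, Plek, Sdf2, Cox6c and Ilk overlap those of other genes.

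Some of the genes listed as related to cathepsins were lower in Cre as well. Of 81 genes in 5 lists, 69 were tested, of which 20 fell (29.0%), 0 rose and 49 did not pass, where 15.3% of all genes were past the threshold in either direction. Their median log2 fold change was -0.43, against 0.01 over all genes. All 20 calls ended without flox 1, flox 2, Cre 1 or Cre 2, when edgeR called 0 genes of the table (24 to 32 of the related genes at an unadjusted p below 0.05). Of them 7 passed without Cre 3, and without flox 3 the count was 39 lower and 3 higher. The lists were also drawn up with earlier results of these data known. Among the other lysosomal peptidases 3 of 9 fell and 0 rose: Lgmn, the asparaginyl endopeptidase that matures several cathepsins, and the peptidases Dpp7 (-0.47 ± 0.11) and Prcp (-0.58 ± 0.14). Lgmn stood at 3653, 3951 and 3165 CPM in flox 1, 2 and 3 and at 1444, 1712 and 1615 CPM in Cre 1, 2 and 3, with flox 3 close to its group (log2 fold change -1.17 ± 0.15, edgeR adjusted p = 0.0237). The remaining cathepsins tested were Ctso at -0.88 ± 0.24, Ctsf at -0.80 ± 0.36 and Ctsw at -0.22 ± 0.46, none past the threshold (edgeR adjusted p = 0.0550, 0.174 and 0.763).

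In the list of cystatins and other protease inhibitors, 2 of 14 fell and 0 rose. This share is near the 15.3% of all genes past the threshold in either direction. Whether each of these inhibitors acts on cathepsins was not checked. Of the 14, 8 had a negative log2 fold change, and the median of the 14 was -0.13. The 14 include the plasma protein genes Ahsg, Fetub, Hrg, Kng1 and Kng2, which hepatocytes make. Hepatocyte markers summed to 385 to 957 CPM in flox and 219 to 790 CPM in Cre. Their part in these values was not tested. Past the threshold were Cstb, a cytosolic cystatin, at -0.72 ± 0.18 (edgeR adjusted p = 0.0417), and the serpin Serpinb6a at -0.85 ± 0.18 (adjusted p = 0.0324). Exons of Serpinb6a overlap Ripk1 and Nqo2. The Kunitz inhibitor Spint1, at most 1.48 CPM in any library, was at 1.65 ± 0.48 (adjusted p = 0.0625). In the sorting and uptake list 5 of 18 fell and 0 rose, among them Grn, the lysosomal granulin precursor, from 3070 ± 804 to 1533 ± 118 CPM (-1.0 ± 0.22, adjusted p = 0.0335), the endoplasmic reticulum exit factor Cln8 (-1.25 ± 0.23), and the Golgi adaptors Gga1 (-0.76 ± 0.17) and Gga3 (-0.66 ± 0.15). Exons of Grn and Gga3 overlap Fam171a2 and Mrps7. Of the 18, 16 had a negative log2 fold change. Those not past the threshold included Sorl1 at -2.43, M6pr at -0.59, Igf2r at -0.43, Gga2 at 0.02 and Gnptab at 0.12.

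In the transcription factor list 6 of 12 fell and 0 rose. The others were Tfec at -0.62, Mcoln1 at -0.31, Mtor at -0.10, Fnip1 at -0.04, Rragd at -0.03 and Rraga at 0.10. Mitf stood at 63.2, 84.8 and 32.7 CPM in flox 1, 2 and 3 and at 13.6, 14.1 and 14.8 CPM in Cre 1, 2 and 3 (-2.09 ± 0.33, edgeR adjusted p = 0.0238). Tfeb stood at 35.0, 42.8 and 15.9 CPM in flox 1, 2 and 3 and at 11.2, 9.48 and 6.94 CPM in Cre 1, 2 and 3 (-1.76 ± 0.38, adjusted p = 0.0328). In both, flox 3 was the lowest flox library and still above Cre. Tfe3 was at -0.47 ± 0.11, and Fnip2, Rragc and Flcn, which tie these factors to nutrient sensing, at -0.59 ± 0.14, -0.37 ± 0.10 and -0.33 ± 0.09, all past the threshold. Scaled by library totals, these 4 calls ended, at -0.31, -0.43, -0.21 and -0.18 (edgeR adjusted p = 0.0766, 0.0782, 0.158 and 0.259), while Mitf and Tfeb still passed. The calls of Dpp7 and Prcp also ended under that scaling (edgeR adjusted p = 0.0937 and 0.0721), that of Cstb by the narrowest margin over the threshold, and Spint1 passed (adjusted p = 0.0466). In limma-voom, Tfeb, Rragc, Flcn and Cstb did not pass (adjusted p = 0.0689, 0.0559, 0.0582 and 0.0519), and with no count filter in edgeR, Tfe3, Fnip2, Rragc, Flcn and Dpp7 did not (adjusted p = 0.0575, 0.0529, 0.0976, 0.126 and 0.0585). The list of binding partners and processed proteins of cathepsins also held class II genes, such as H2-Aa and H2-DMa. Whether each gene's product is bound or cut by a cathepsin was not checked. Of its 16 tested genes, 4 fell and 0 rose. They were the sialidase Neu1, a partner of cathepsin A, at -0.95 ± 0.21 (adjusted p = 0.0320), the peptide-loading subunit H2-DMa at -2.27 ± 0.50, whose exons overlap Brd2, the DNA sensor Tlr9 at -2.99 ± 0.70 and the cytokine gene Tgfb1 at -0.88 ± 0.22. In limma-voom, H2-DMa, Tlr9 and Tgfb1 did not pass (adjusted p = 0.102, 0.114 and 0.0507). Cd74, the invariant chain that cathepsin S trims, was at -0.44 ± 0.34 (adjusted p = 0.393). Macrophage markers fell over the same libraries, at a median of -2.97, and their part in these counts was not tested.

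**Figure D5:**
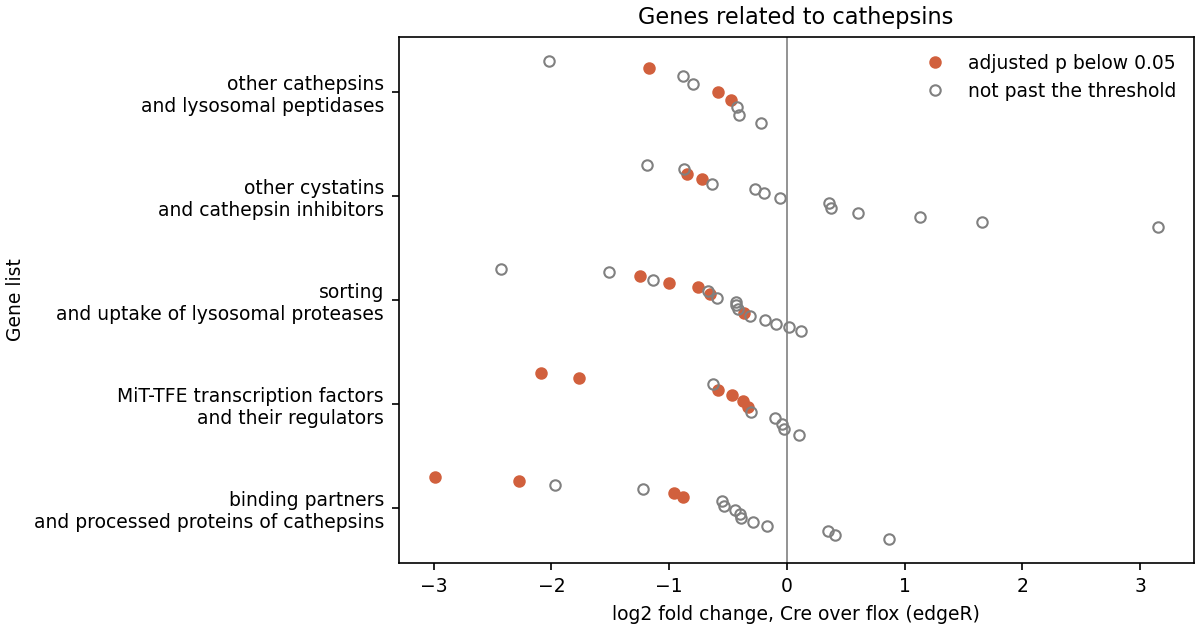
Log2 fold change, Cre over flox, of each tested gene of the 5 related lists (edgeR, n = 3 per group), filled where the adjusted p was below 0.05. All 20 filled points lie to the left of 0.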

How the data were processed

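The authors deposited a table of raw counts by gene symbol with 6 library columns, and a second one of FPKM. The deposited FPKM are counts divided by the library total and by 1 length per gene, checked on the values. Per the labels' protocols, libraries were made from column-purified RNA with a SMARTER mRNA kit. Builds listed in the submitters' processing notes are GRCm38, mm10 and hg38, without saying which served for what. The sources used here do not give the aligner, the counter or how strand was treated. Of the per-sample columns, 0 were left unused.

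The members and gene lists were chosen with earlier results of these data known. Counts were fitted with edgeR 4.0.16 in R 4.3.3: filterByExpr (minimum count 10, minimum total 15) kept 14795 genes, libraries were scaled by TMM (factors 0.905 to 1.07), and the two-sided quasi-likelihood F-test compared Cre with flox without covariates, with Benjamini-Hochberg adjustment over all genes and calls below 0.05. CPM are TMM-normalised, and standard errors are the absolute log2 fold change over the square root of F. With 3 libraries against 3, a permutation test cannot reach 0.05, so none was run. No libraries agreed within sampling noise (lowest chi-square per gene 33.8). Alternatives were RLE factors, library totals, DESeq2 1.42.0, limma-voom (limma 3.58.1), fits without each library in turn, a replicate block, other filters (none, or 1 CPM or more in 3 libraries), and limma-trend on FPKM with 1 or 0.1 added before log2, or with genes under a mean of 1 FPKM dropped. The fitting code was tested on simulated counts. Named genes were all members, related genes past the threshold, or the 3 of lowest p where a list had fewer past it, and the 5 genes most like Ctsc and Ctsk; a few others, such as the remaining cathepsins, Cd74 and overlapping genes, were added after their values were seen. The values of 1 related gene are not reported here. Positions and exon overlaps are from GENCODE M21 (GRCm38).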

Additional observations from a re-analysis of the deposited data

How the results depend on the processing

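All 10 members had a negative log2 fold change under each alternative run, and their median, -1.21, stayed between -1.39 and -1.01. The counts past the threshold depended on the tool and on single libraries. The count over all genes, 2263 in edgeR, was 4334 in DESeq2 and 1404 in limma-voom, and the count of related genes, 20 in edgeR, was 34 and 12. Library totals gave 13 related genes (12 lower and 1 higher), and turned the split over all genes from 1323 lower and 940 higher to 1066 lower and 1415 higher. Limma-trend gave 11 related genes on log2(FPKM + 1), 13 on log2(FPKM + 0.1) and 13 at a mean FPKM of at least 1. With each library left out in turn, all genes ran from 0 to 5329 and related genes from 0 to 42, the highest without flox 3. The titles share replicate numbers, but same-numbered libraries did not deviate together (correlations across genes of -0.03, -0.10 and -0.06), so the numbers were not taken as pairs. A replicate block in edgeR gave 0 genes and 0 related genes (at an unadjusted p below 0.05, 4296 and 30), and a members' median of -1.18. The counts limit little here: the least abundant member, Ctsk, had at least 488 counts per library. The cause of these changes was not tested.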
